A study of Homo sapiens with 3 samples.

Results

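The end of the short arm of chromosome 16, band 16p13.3, was examined for H3K36me3 in LNCaP cells, a prostate cancer cell line that responds to androgens. The region was taken as every peak of either deposited list that overlaps hg19 chromosome 16 from 1 to 3500000. This gave 621 peaks of 249369 in both lists, namely 344 of 131801 from cells given dihydrotestosterone (DHT) and 277 of 117568 from untreated cells. The region spans 0.113% of the sequence between the chromosome starts and their last peaks, and held 0.261% of the DHT peaks and 0.236% of the untreated peaks. Its border cuts through marked sequence: the last DHT peak inside ends at 3499731 and the first outside begins at 3500183, and the untreated peaks on either side end at 3499876 and begin at 3500147.

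Both groups are the same cell line, grown in RPMI with serum. The DHT cells received 100 nM of the hormone for 4 h in RPMI described as red-free, and for the untreated cells the labels state no treatment. The effect of the hormone and that of a change of medium cannot be told apart. Each group has 1 chromatin immunoprecipitation sequencing (ChIP-seq) library with an antibody to H3K36me3, and the labelled input library was not analysed here. With 1 library per group there is no test of any difference, and no value below has a replicate check. The reads behind a peak, and so the depth of each library, are unknown.

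H3K36me3, trimethylation of lysine 36 on histone H3, is deposited over the bodies of transcribed genes by SETD2, an enzyme that travels with elongating RNA polymerase II. Gene-dense chromosome ends with many short, active genes therefore tend to carry it densely, while a gene that is not transcribed in a tissue tends to lack it. Band 16p13.3 combines widely expressed genes with the alpha-globin cluster, which includes the genes for the alpha-type chains of haemoglobin and is transcribed in red cell precursors.

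In the gene order of the RefSeq table (GRCh38.p14) the cluster runs HBZ (embryonic zeta chain), HBM (mu-globin), HBA2 and HBA1 (the adult alpha chains) and HBQ1 (theta-globin). On the side of the chromosome end it is preceded by MPG, a DNA repair glycosylase, and NPRL3, a subunit of the GATOR1 complex that restrains mTORC1 and whose introns hold the erythroid enhancers of alpha-globin. On the other side it is followed by LUC7L, a splicing factor. An hg19 annotation was not used here, so peaks were not assigned to genes, and this order is background only.

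The start regions of a globin gene and of its housekeeping neighbour are shown because the interval labelled a silent spot below was defined by this cluster. Each holds 250 bases before and 50 after the annotated start, 5′ to 3′ on the gene's own strand, from RefSeq on GRCh38.p14 and not on the build of the peaks. HBM lies on the plus strand at chr16:165728-166027 and NPRL3 on the minus strand at chr16:138624-138923 of that build. Capitals mark GATAAG, the core bound by GATA factors, searched on both strands as these letters alone.
HBM: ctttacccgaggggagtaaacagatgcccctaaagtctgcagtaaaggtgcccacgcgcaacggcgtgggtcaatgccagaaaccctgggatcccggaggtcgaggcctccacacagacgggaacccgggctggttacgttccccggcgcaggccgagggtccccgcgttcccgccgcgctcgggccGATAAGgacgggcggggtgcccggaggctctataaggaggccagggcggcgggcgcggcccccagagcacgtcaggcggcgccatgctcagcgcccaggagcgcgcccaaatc
NPRL3: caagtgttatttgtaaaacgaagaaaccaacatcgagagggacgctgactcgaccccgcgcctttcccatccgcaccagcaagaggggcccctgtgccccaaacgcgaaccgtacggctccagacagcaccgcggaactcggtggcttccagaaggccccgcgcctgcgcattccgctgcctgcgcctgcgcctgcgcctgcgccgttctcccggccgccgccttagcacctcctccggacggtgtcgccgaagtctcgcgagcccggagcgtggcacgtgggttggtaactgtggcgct
HBM held 1 match and NPRL3 held 0, and 6.36% of 35116 start regions of this length in the table held at least 1. HBM had 33 CpG dinucleotides and NPRL3 had 36, against a median of 14 over all these start regions. A match is a run of letters and not a shown binding site.

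The region was densely marked in both libraries and more widely covered after DHT. Peaks covered 446.9 kb, or 12.8%, of it in the DHT library and 317.6 kb, or 9.07%, in the untreated library, a ratio of 1.41. All nuclear chromosomes together were covered at 2.13% and 2.08%, and the rest of chromosome 16 at 2.603% after DHT and 2.33% untreated, a ratio of 1.12. The number of peaks differed less than their length: 98.3 per Mb after DHT and 79.1 per Mb untreated, a ratio of 1.24 (95% exact interval 1.06 to 1.46). That interval covers counting error only and treats neighbouring peaks as independent, which they are not. The peak number ratio was similar on the rest of chromosome 16, 1.25, so the number of peaks, unlike their length, differed alike in both places. It was 1.12 over all nuclear chromosomes, and 1.25 and 1.26 in the first 3500000 bp of chromosomes 19 and 11.

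**Figure D1:**
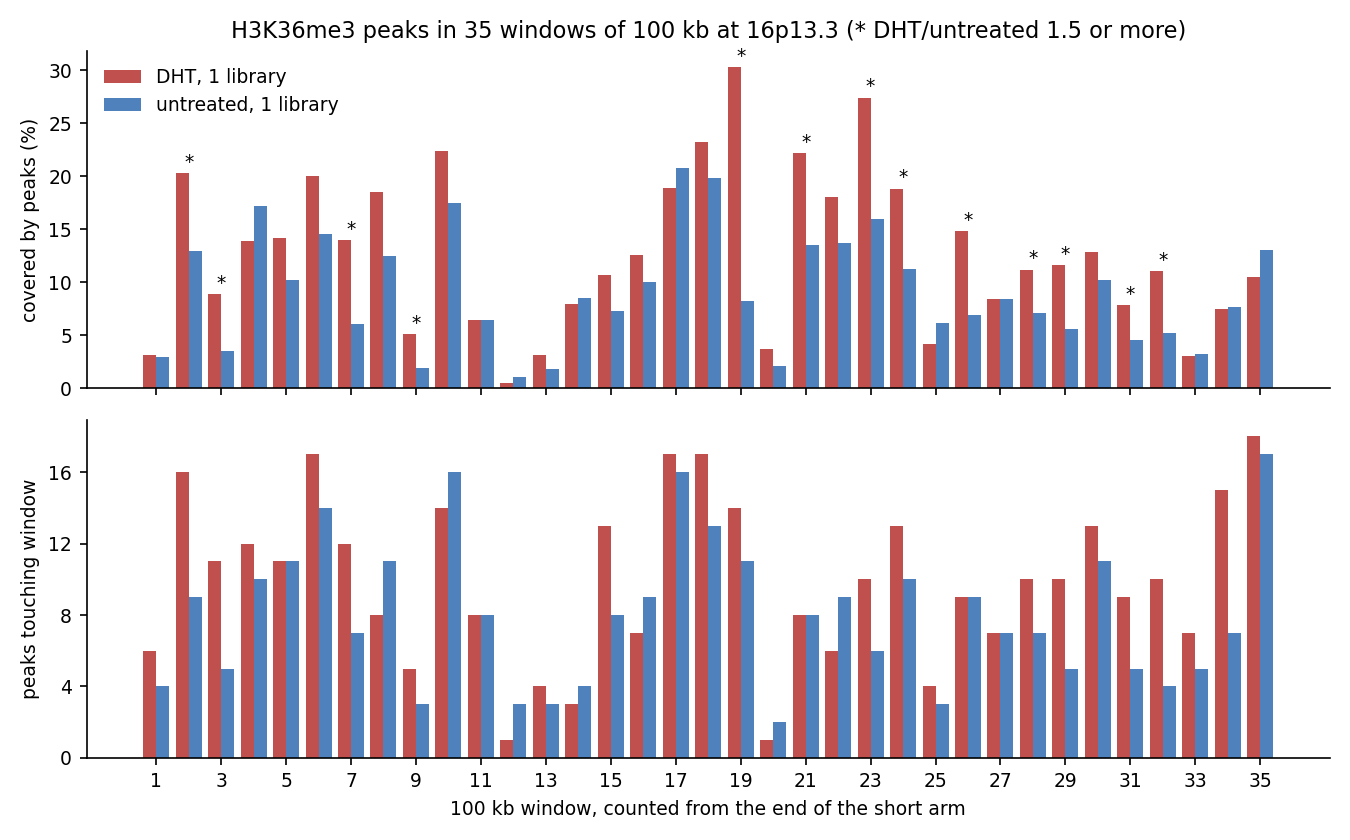
Covered percent (upper panel) and number of peaks touching the window (lower panel) in 35 windows of 100 kb, counted from the end of the short arm, with the DHT library left and the untreated library right in each pair. Each bar is 1 library. Asterisks mark the 13 windows covered at least 1.5 times as widely after DHT among the 30 with at least 5 kb covered, of which window 19 shows the greatest difference, 30.3% against 8.19%.

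In windows of 100 kb the mark ran through the whole region. None of the 35 windows lacked peaks in both libraries, whereas 36.2% of the 30940 windows of the genome did. Coverage ranged from 0.493% to 30.3% after DHT with a median of 11.6%, and from 1.02% to 20.8% untreated with a median of 8.19%. By the mean of both libraries, 25 windows were among the 10% most covered of the genome and 7 among the top 1%. At least 20% was covered in 6 windows after DHT and in 1 untreated. Coverage was thus high along most of the region, with a few thinly covered windows between.

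Windows higher after DHT lay between windows 2 and 9 and between windows 19 and 32, with none from window 10 to window 18, and none was lower by the same rule. A window was compared where either library covered 5 kb or more of it, and called at a 1.5-fold difference in covered length. Of 30 windows compared, 13 were higher after DHT, 43.3%, where 12.1% of all 5424 compared windows of the genome were. Lower by 1.5-fold were 0 of the 30, where 7.80% of the genome's windows were, and 2 were lower when only the higher-scoring 50% of each list was used. By any amount, 24 of the 30 were more covered after DHT, against 49.7% across the genome. The same rule called 16 of 28 windows higher in the first 3500000 bp of chromosome 19 (19p13.3) and 10 of 19 in those of chromosome 11 (11p15.5), with 0 lower in either. Elsewhere on chromosome 16 it called 37 of 189 higher and 8 lower. The excess of higher windows was therefore shared with these other gene-dense ends, and differences between the ends were not tested.

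**Figure D2:**
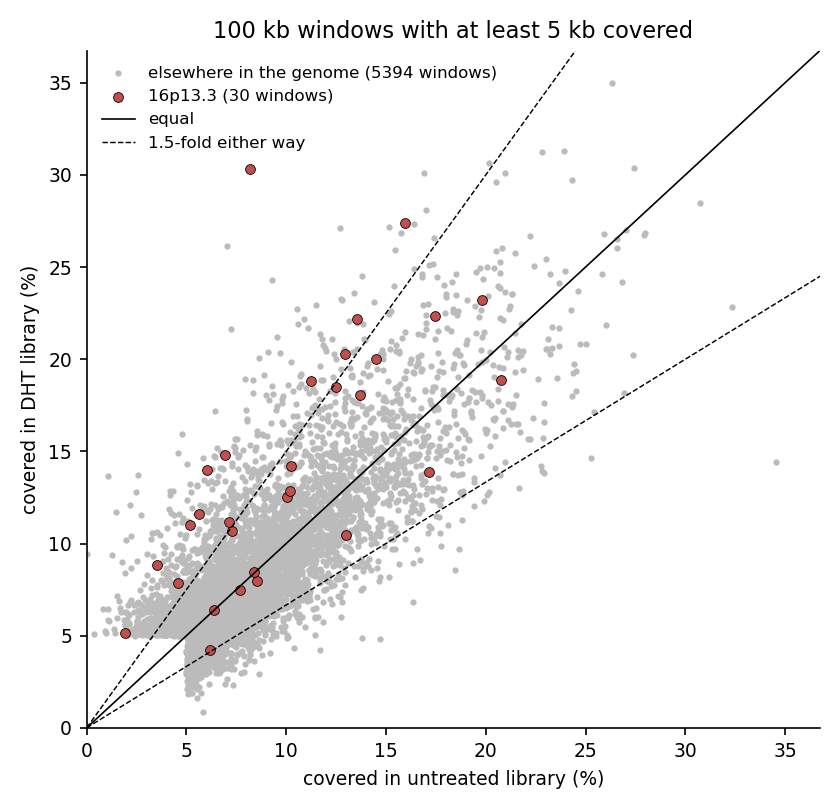
Covered percent in the DHT library (vertical) against the untreated library (horizontal) for each 100 kb window with at least 5 kb covered in either. Red points are the 30 windows of 16p13.3 and grey points are windows elsewhere. The solid line marks equal coverage and the dashed lines mark 1.5-fold, with 13 red points on or above the upper line and 0 on or below the lower one.

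The most covered windows by the mean of both libraries were window 23, window 18 and window 10. Window 23, from 2200001 to 2300000, was covered at 27.4% after DHT and 15.9% untreated. Window 18, from 1700001 to 1800000, was covered at 23.2% and 19.8%, and window 10, from 900001 to 1000000, at 22.3% and 17.46%. Window 18 had 17 peaks after DHT and 13 untreated, and window 23 had 10 and 6. The peaks of window 23 ranked high in their lists, with a median score percentile of 89.0 after DHT and 90.3 untreated, while those of window 10 had medians of 32.9 and 47.5.

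Of the 5 windows with the largest difference in favour of DHT, 4 lay between 1800001 and 2600000. Window 19, from 1800001 to 1900000, was covered at 30.3% after DHT and 8.19% untreated, a difference of 22.1 points. Window 23 differed by 11.5 points. Window 21, from 2000001 to 2100000, was covered at 22.2% after DHT and 13.5% untreated, with 8 peaks in each library. Window 26, from 2500001 to 2600000, was covered at 14.8% and 6.94%, with 9 peaks in each. The other, window 7 from 600001 to 700000, was covered at 13.96% after DHT and 6.03% untreated, with 12 peaks against 7. In windows 21 and 26 an equal number of peaks thus covered more sequence after DHT.

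Coverage and peak number parted in other windows as well. Window 8, from 700001 to 800000, had 8 peaks after DHT and 11 untreated, yet was covered at 18.5% after DHT and 12.5% untreated. Window 22, from 2100001 to 2200000, had 6 peaks against 9 and was covered at 18.045% against 13.7%. In all, 23 windows had more peaks after DHT, 7 had fewer and 5 had the same number. The genome's share of such windows is not given here, so these counts have no background. The DHT list held 1.12 times as many peaks over all nuclear chromosomes and 1.25 times as many on the rest of chromosome 16.

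The 5 largest differences in favour of untreated cells were small. Window 4, from 300001 to 400000, was covered at 13.9% after DHT and 17.2% untreated. Window 35, from 3400001 to 3500000, was covered at 10.4% and 13.01%, and window 17, from 1600001 to 1700000, at 18.9% and 20.8%. Window 25, from 2400001 to 2500000, had 4.21% after DHT and 6.19% untreated, and window 14, from 1300001 to 1400000, had 7.96% and 8.54%. Ratios of these 5 ran from 0.680 to 0.932, so none met the 1.5-fold rule.

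The least covered windows were windows 12, 13 and 20. Window 12, from 1100001 to 1200000, held 1 DHT peak and 3 untreated peaks, covered 0.493% after DHT and 1.02% untreated, and had no base covered in both. Window 13, from 1200001 to 1300000, was covered at 3.16% and 1.77%. Window 20, from 1900001 to 2000000, held 1 DHT peak and 2 untreated peaks, at 3.74% and 2.12%. Averaged by 500 kb, coverage was lowest from 1000001 to 1500000, at 5.73% after DHT and 5.00% untreated. After DHT it was highest from 2000001 to 2500000, at 18.1%, with 12.13% untreated. Untreated coverage was highest from 1500001 to 2000000, at 12.19%, with 17.7% after DHT. The ratio was highest from 2500001 to 3000000, at 1.54, and lowest from 1000001 to 1500000, at 1.15. All 7 such stretches were more covered after DHT.

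The added coverage after DHT lay in wide peaks. Peaks of at least 2 kb numbered 67 of 344 after DHT, 19.5%, and 35 of 277 untreated, 12.6%, where 2.05% of all DHT peaks and 2.58% of all untreated peaks were that wide. They summed to 226.1 kb after DHT and 102.8 kb untreated, a ratio of 2.20, whereas all narrower peaks together gave a ratio of 1.03. Peaks of at least 4 kb numbered 18 after DHT and 5 untreated, where all nuclear chromosomes held 485 and 413. Peaks under 500 bp were also more numerous after DHT, 90 against 56, a ratio of 1.61, but held 29.7 kb and 20.2 kb. That number ratio was 1.42 on the rest of chromosome 16 and 1.21 over all nuclear chromosomes, so an excess of such peaks was not particular to the region. Between the narrowest and the widest class the libraries were close, with 104 and 100 peaks of 500 bp to 1 kb and 83 and 86 of 1 to 2 kb. The median width was 863.5 bp after DHT and 900.0 bp untreated. The lists thus differed in number at both ends of the width distribution, while the difference in length came from its upper end.

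**Figure D3:**
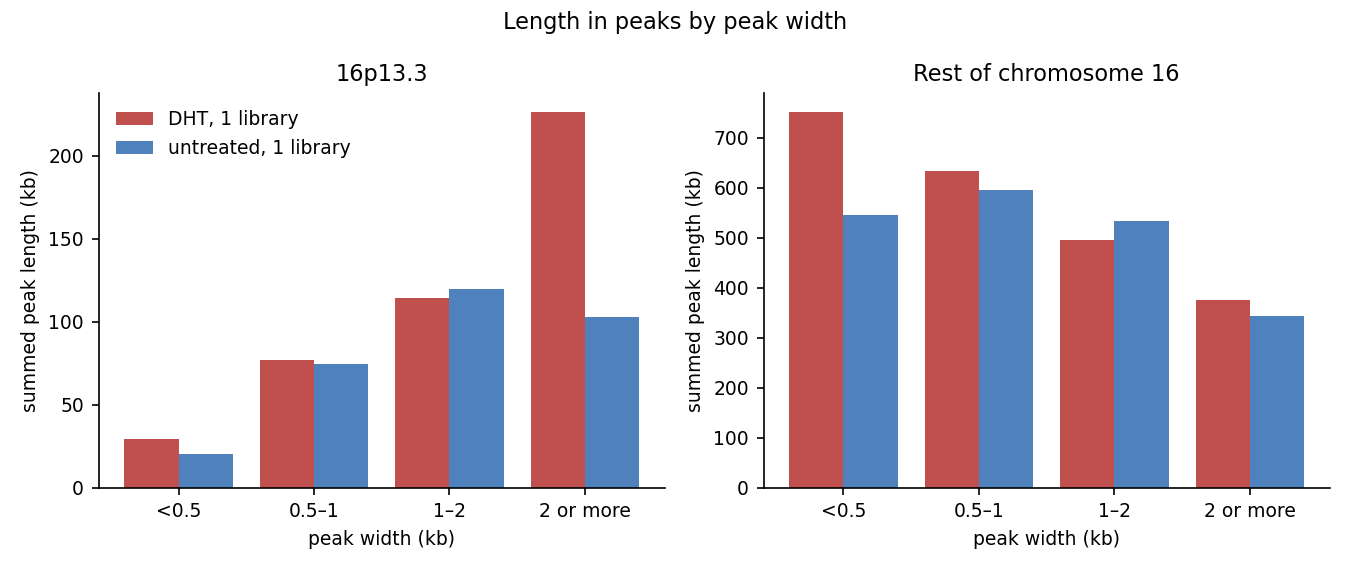
Summed length of peaks in 4 width classes in 16p13.3 (left) and the rest of chromosome 16 (right), with the DHT library left and the untreated library right in each pair and 1 library per bar. In 16p13.3 the class of 2 kb or more holds 226.1 kb after DHT and 102.8 kb untreated. On the rest of the chromosome it holds 375.9 and 343.6 kb.

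Wide peaks had a smaller part on the rest of chromosome 16, where their summed length was 375.9 kb after DHT and 343.6 kb untreated, a ratio of 1.09. Over all nuclear chromosomes that ratio was 0.931. The ends 19p13.3 and 11p15.5 resembled 16p13.3, with ratios of 2.20 and 2.03 for wide peaks and 1.51 and 1.52 for covered length. Their covered percent was lower than that of 16p13.3 in both libraries. It was 11.95% after DHT and 7.91% untreated in 19p13.3, and 8.85% and 5.82% in 11p15.5. Peaks of at least 2 kb made up 24.5% of DHT peaks and 16.8% of untreated peaks in 19p13.3. In 11p15.5 they made up 16.7% and 12.4%, so a high share of wide peaks was common to these ends.

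Wide peaks met the other list about as often here as across the genome. Of the 67 wide DHT peaks, 21 overlapped an untreated peak of at least 2 kb, 32 overlapped narrower untreated peaks only, and 14 had no untreated counterpart. Across the genome these counts were 1318, 752 and 630 of 2700 wide DHT peaks. A counterpart that was narrower only was thus more frequent here, and this difference was not tested. The overlapped share was 79.1%, where 76.7% of all wide DHT peaks were overlapped. Untreated peaks covered 47.8% of the summed length of the wide DHT peaks here, and 55.9% across the genome. Of the 35 wide untreated peaks, 21 overlapped a wide DHT peak, 11 overlapped narrower ones and 3 had no counterpart. Across the genome these counts were 1301, 1467 and 268 of 3036. DHT peaks covered 75.4% of the length of the wide untreated peaks here, and 66.6% across the genome. The overlapped share of the 35 was 91.4%, where it was 91.2% for all wide untreated peaks. Of the wide DHT peaks, 36 were in the highest-scoring 25% of their list, 53.7% where all wide DHT peaks had 60.3%, and 10 in the lowest-scoring 25%, 14.9% against 8.30%. Of the wide untreated peaks, 16 were in the highest-scoring 25%, 45.7% where all of them had 57.8%, and 6 in the lowest, 17.1% against 9.68%. The score is the authors' value per peak and was ranked only within its own list.

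The 5 widest DHT peaks included a pair with no untreated counterpart. The widest of all, 7247 bp from 779570 to 786816, ranked 13 by width in the whole DHT list, but its score of 50.3 was at percentile 0.647. Untreated peaks covered 48.4% of it. The peak of 5719 bp from 1824813 to 1830531 scored 72.3 and that of 5155 bp from 2281560 to 2286714 scored 63.4, and neither met an untreated peak. The peak from 2119803 to 2125047 was 5245 bp wide with a score of 61.2, and untreated peaks covered 58.8% of it. Only the peak from 105327 to 110691, 5365 bp wide, combined width with a high score, 507.

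That last peak was nearly the same in both libraries. The untreated peak ran from 105319 to 110706, was the widest of the untreated list in the region at 5388 bp, and scored 415. It was at percentile 99.1 of its list and the DHT peak at 99.3. The edges of the pair differed by 8 bp at the start and 15 bp at the end. The other 4 of the 5 widest untreated peaks, 4419 to 4990 bp wide, were covered over 77.0% to 99.96% by DHT peaks.

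The highest-scoring peaks were shared. All 5 of the DHT list overlapped an untreated peak over at least 91.1% of their width, and all 5 of the untreated list overlapped DHT peaks over at least 63.3% of theirs. The share of peaks with such scores that were overlapped across the genome is not given here. Over all nuclear chromosomes overlapped peaks had higher median scores than the others, 113 against 72.5 after DHT and 97.4 against 70.3 untreated. The top DHT peak, from 2035433 to 2037664, scored 616 with an untreated counterpart at 303. The top untreated peak, from 3432616 to 3433617, scored 615 with a DHT counterpart at 550. A further untreated peak from 731210 to 733584 and its DHT counterpart both scored 418. Scores in the highest 10% of the own list were held by 42 DHT peaks, 12.2% (95% Wilson interval 9.16% to 16.1%), and by 38 untreated peaks, 13.7% (10.2% to 18.3%), where 10.0% of each whole list qualify. The median score percentile was 54.8 after DHT and 50.04 untreated. The highest-scoring 25% of the list held 32.6% of the DHT peaks and 24.5% of the untreated peaks of the region.

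Peaks of either list found a counterpart more often here than across the genome. A DHT peak was overlapped by at least 1 bp in 198 of 344 cases, 57.6% (52.3% to 62.7%), where 48.5% of all DHT peaks were. An untreated peak was overlapped in 198 of 277 cases, 71.5% (65.9% to 76.5%), where 52.3% of all untreated peaks were. In 19p13.3 the shares were 52.5% of DHT peaks (46.7% to 58.2%) and 68.1% of untreated peaks (61.8% to 73.9%). In 11p15.5 they were 52.9% (46.8% to 58.8%) and 64.6% (57.9% to 70.8%). Untreated shares above that of the genome were thus common to these ends. For DHT peaks, the intervals of 19p13.3 and 11p15.5 held the genome's 48.5%. Differences between the ends were not tested. Wider peaks meet others more easily, and the part of width in these shares was not tested. Peaks without a counterpart were narrower, with a median of 618.5 bp against 1109 bp after DHT and 507 bp against 1053 bp untreated. Their median scores were also lower, 71.9 against 124 after DHT and 63.4 against 95.9 untreated.

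Sequence covered in both libraries came to 220.8 kb, or 40.6% of what either covered. Another 41.6% was covered after DHT only and 17.8% in untreated cells only. Of the DHT coverage, 49.4% was shared, 20.3% was unshared sequence within overlapped peaks and 30.3% lay in peaks with no counterpart. Over all nuclear chromosomes these parts were 48.5%, 9.46% and 42.1%, so the shared part of the DHT coverage was near that of the genome. Of the untreated coverage the parts were 69.5%, 11.9% and 18.6%, where all nuclear chromosomes had 49.7%, 17.0% and 33.3%. The DHT-only sequence thus came to 90.7 kb inside overlapped peaks and 135.4 kb in separate ones.

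Separate peaks lay about as close to the other list as elsewhere. Of 146 DHT peaks without a counterpart, 90 lay within 5 kb of an untreated peak, 61.6% where 66.3% did across the genome, and 25 lay more than 10 kb away, the farthest at 46200 bp. Of 79 untreated peaks without one, 55 lay within 5 kb of a DHT peak, 69.6% where 69.1% did across the genome, and 5 lay beyond 10 kb. Of the overlapped DHT peaks, 10 met at least 2 untreated peaks, 5.05% where 2.34% did across the genome. Of the overlapped untreated peaks, 9 met at least 2 DHT peaks, 4.55% where 6.08% did. These counts are small, and the differences were not tested.

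Where 1 DHT peak met 1 untreated peak and no other, in 168 pairs, 96 were wider after DHT and 72 narrower. The median ratio of widths in a pair was 1.07, with the middle 50% between 0.805 and 1.46. Their edges were close, with a median offset of 157 bp at the start and 123 bp at the end, and in 34 pairs both edges lay within 100 bp. The score percentile was higher after DHT in 104 pairs and lower in 64. Counts of such pairs across the genome are not given here. Over all overlapped peaks of the region, not taken in pairs, the median score percentile was 73.0 after DHT and 62.4 untreated. Over all nuclear chromosomes that median was 68.1 after DHT and 63.4 untreated. A higher median after DHT was thus found across the genome too, by a smaller margin, and this difference was not tested. In single pairs width thus differed both ways, with a median near equality.

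When peaks from either list were joined across gaps of up to 5 kb, 39 blocks of 10 kb or longer resulted, all with peaks of both libraries. They had a median length of 15.3 kb and held 49.4% of the DHT coverage and 51.4% of the untreated coverage on 18.4% of the region. The longest, 31.7 kb from 3432616 to 3464325, was covered over 9046 bp after DHT and 10694 bp untreated. Next came blocks of 28.8 kb from 2972271 to 3001116, with 7242 bp after DHT and 6147 bp untreated, and of 28.0 kb from 1546431 to 1574449, with 9203 and 6780 bp. The block of 24.03 kb from 1700753 to 1724777 had 9616 and 7366 bp. These 4 blocks differed by less than 1.5-fold. The fifth, from 2797218 to 2818276, differed by more, with 7357 bp after DHT and 2062 bp untreated.

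Among 26 blocks where either library covered 5 kb or more, 7 were at least 2-fold higher after DHT and 1 was at least 2-fold lower, where 8.07% and 2.73% of all such blocks of the genome were. These counts depended on the joining distance: with peaks joined at 2 kb they were 1 and 0, and at 10 kb they were 6 and 1. The number of blocks compared and the genome's share at these 2 distances are not given here. The largest difference was in the block from 1816897 to 1831517, where 2 DHT peaks covered 68.3% and 1 untreated peak covered 5.73%. In the block from 1854105 to 1873198, DHT peaks covered 61.2% and untreated peaks 14.6%. From 129182 to 149047 the covered length was 9074 bp after DHT and 2024 bp untreated, and from 2215596 to 2235134 it was 10927 bp and 5818 bp. The scores behind these blocks ranged from 55.1 to 319 after DHT and from 66.3 to 252 untreated.

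Differences in favour of untreated cells were smaller in blocks as well. The block from 303692 to 316338 was covered over 3589 bp after DHT and 7448 bp untreated, the single 2-fold lower block among the 26. Its 4 untreated peaks had a median score of 59.6, and its 2 DHT peaks had one of 127. Covered length in the block from 1620039 to 1640195 was 3626 bp after DHT and 6491 bp untreated, and in that from 1796592 to 1811477 it was 3286 bp and 6075 bp. It was 2178 bp after DHT and 4406 bp untreated from 973048 to 990553, also over 2-fold lower but below the 5 kb required, and 4208 bp and 6188 bp from 2482335 to 2497255.

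**Figure D4:**
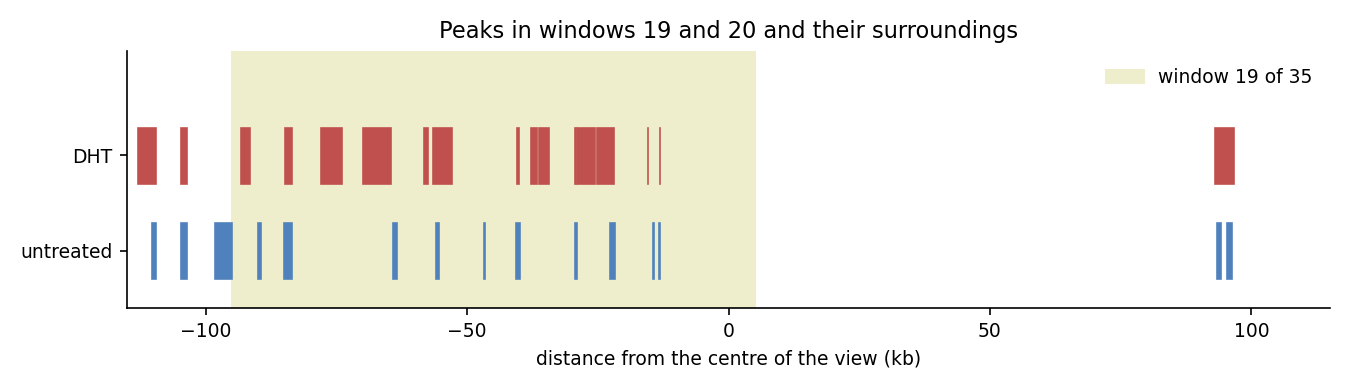
Peaks of the DHT library (upper row) and the untreated library (lower row) around window 19, drawn to scale by distance in kb from the centre of the view, with window 19 shaded. DHT peaks of up to 5719 bp stand in the window, the widest with no untreated peak under it. Untreated peaks wholly inside the window are at most 1708 bp wide. To the right of these peaks neither library has a peak for 106.0 kb.

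Window 19 joined the largest difference to the longest peak-free stretch of the region. Its DHT peaks included 5 of at least 3 kb, with widths of 4266, 5719, 3931, 3597 and 3556 bp and scores from 53.6 to 188. Untreated peaks wholly inside the window were at most 1708 bp wide, and a further one of 3500 bp crossed its left edge by 91 bp. From 1881923 to 1987921, over 106.0 kb, neither library had a peak. The DHT peak and the untreated peak before this stretch ended within 88 bp of each other, and those after it began within 374 bp. The next longest stretches without a peak of either library were 103.4 kb from 2378896 to 2482334 and 74.4 kb from 3193585 to 3267958. Peak names in both lists are numbered without a break, so no numbered peak is absent from these stretches.

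The alpha-globin interval, which is 35 kb long and begins at position 200000, was almost free of peaks. The DHT list had 0 peaks in it. The untreated list had 1, from 227799 to 228048, 250 bp wide with a score of 67.6, at percentile 34.0 of its list, so that 0.714% of the interval was covered. The 100 kb on the side of the chromosome end were covered at 20.3% after DHT and 12.9% untreated, and the 100 kb on the other side at 12.4% and 10.7%. The label of a silent spot could be checked here on called peaks alone, with 0 in the DHT list and 1 short one in the untreated list. Transcription of the genes in the interval was not measured.

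**Figure D5:**
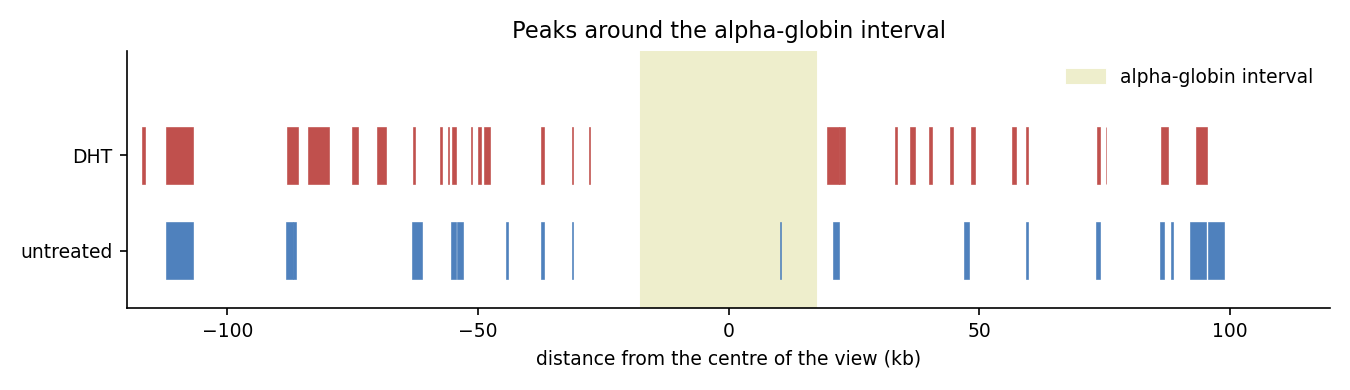
Peaks of the DHT library (upper row) and the untreated library (lower row) by distance in kb from the centre of the alpha-globin interval, which is shaded. The shaded interval holds 0 DHT peaks and 1 untreated peak of 250 bp, and peaks of both libraries stand on either side.

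The nearest DHT peaks lay 10078 bp before the interval, at 189595 to 189921 with a score of 50.3, and 2228 bp after it, at 237229 to 239532 with a score of 51.2. These scores were at percentiles 0.581 and 2.54 of the list. The nearest untreated peaks outside it lay 13505 bp before, at 186302 to 186494 with a score of 92.8, and 3260 bp after, at 238261 to 239533 with a score of 72.4. The span between the flanking peaks was 47.3 kb after DHT and 51.8 kb untreated. The interval is not the only empty place: on a grid of 100 stretches of 35 kb across the region, 11 had no DHT base, 16 had no untreated base and 9 had none in either. The globin interval was thus among the emptier stretches of the region, and at least 6 other stretches without a peak of either library were longer than the span between its flanking DHT peaks.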

How the data were processed

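H3K36me3 was measured by ChIP-seq in LNCaP cells, with 1 DHT and 1 untreated library. The authors deposited 1 peak list per library, made with MACS per the names of the peaks, on hg19 per the file names. The settings of the caller, its control and the aligner were not given in the sources used here. The deposited score per peak runs from 50 to 3100, on a scale the authors do not state, and was ranked only within its list. Peaks on chromosomes 1 to 22, X and Y entered genome-wide values. Covered length was computed with NumPy 2.4.6 under Python 3.11.15 and overlap counts were identical with bedtools 2.31.1. The functions recovered 6 of 6 known answers on 5000 simulated peaks. Intervals (95%, Wilson or exact, SciPy 1.17.1) cover counting error only.

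The region and rules were chosen with earlier results of these data known. Named were the 5 windows with the largest rise and fall, the 3 most and least covered, the 5 widest and highest-scoring peaks per list, the 5 longest and most changed blocks and the longest empty stretches. Other features named, such as the 2-fold counts and windows 8 and 22, were chosen after their values were seen. Planned gene-body values were not computed, as only GRCh38.p14 tables were at hand. Alternatives were the higher-scoring 50% of each list, lists at equal covered length, joining, overlap, window and width rules, and other borders.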

Additional observations from a re-analysis of the deposited data

How the results depend on the processing

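No paired analysis was possible because each condition has 1 library. After DHT, 1.41 times as much was covered, and among the higher-scoring 50% of each list it was 1.54 times. This ratio stayed above 1 under every setting run, as did the peak number ratio. In that higher-scoring 50%, shared sequence was 35.997% instead of 40.6%, 2 windows were lower after DHT instead of 0, the ratio for peaks of at least 2 kb was 2.06 instead of 2.20, and the alpha-globin interval held 0 peaks instead of 1. That wide-peak ratio was also 2.06 at equal covered length, 1.80 with each list joined at 1 kb, 1.53 for peaks of at least 1 kb and 3.06 for those of at least 3 kb. With overlap counted from 50% of a peak's width, 50% of DHT peaks were overlapped instead of 57.6%, and joining at 1 kb gave 76.5% of untreated peaks instead of 71.5%. Windows higher after DHT, 13, were 7 at 2-fold and 26 in 50 kb windows, of which there are more to call. Blocks higher and lower, 7 and 1, were 1 and 0 joined at 2 kb. Apart from these changes by construction, the cause was not tested. For the altered window and block rules, the number compared and the genome's share are not given here, so those counts have no background beside them. Of 45 alternative values, the other 30 moved by no more than their counting interval, 5% where there was none, or 1.5 times for counts. Depth is unknown, so a stretch without a peak was not shown to lack the mark.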
